A study of Mus musculus with 8 samples.

Results

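Small RNA of the mouse hippocampus was compared between 6 wk and 10 d after status epilepticus, the prolonged seizure state that is used to start epilepsy in rodents. The 4 libraries of these times, 2 for each, were taken from the 8 small RNA libraries of the series by the time written in the name of each column, and no untreated library entered the comparison. All animals were C57BL/6 mice, and every library compared came from animals that had been through status epilepticus. The 10 d group is usually placed in the latent stage, before spontaneous seizures, and the 6 wk group in the chronic stage. The series also holds mRNA measurements at these times, in which cDNA of 2 animals was pooled for each library. No source used here gives the way status epilepticus was induced, the sex of the animals or the preparation of the small RNA libraries. Whether the 2 small RNA libraries of a time came from separate animals is not stated either, so a p-value here speaks of the spread between libraries, which may be technical.

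The deposited table listed 1251 mature miRNA names, of which 755 had at least 1 tag in the 4 libraries and 417 had enough tags to be tested. The other 338 names with a tag had at most 27 tags in any library, and 496 names had none. A tag is a sequenced small RNA fragment that matches a mature miRNA, and levels are given in CPM (counts-per-million of the library total, scaled for composition with TMM factors). The 10 d libraries, numbered 3 and 4, held 2403624 and 545672 tags, and the 6 wk libraries, numbered 5 and 6, held 1482602 and 1870259 tags. A count of 3 tags, taken as the limit for a miRNA that was not seen, was worth 1.25 and 5.50 CPM at 10 d and 2.02 and 1.60 at 6 wk, which covers counting error only. The shallower 10 d library 4 therefore limits what can be said of rare miRNAs.

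miRNAs are short RNAs cut from hairpin precursors, and either arm of a hairpin, 5p or 3p, can be loaded into an Argonaute protein. The loaded strand pairs with sites in mRNAs, mainly through a short stretch near its 5′ end called the seed, and lowers the stability or the translation of those mRNAs. Hairpins that lie close together are often transcribed as a cluster, and miRNAs with the same seed are expected to share many sites. In the hippocampus, miRNAs have been studied for their parts in neuronal excitability, dendritic spine size, inflammation and cell death after seizures.

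The sequences of the 3 miRNAs that rose, of their cluster or seed partners, and of the miRNAs with the next lowest p in each direction are given because the comparison turns on them. They were taken from RefSeq (GRCm38.p6), 5′ to 3′, with the seed (bases 2 to 8) in capitals.
miR-211-5p: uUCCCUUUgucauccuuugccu
miR-204-5p: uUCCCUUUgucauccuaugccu
miR-212-5p: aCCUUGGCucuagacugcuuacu
miR-212-3p: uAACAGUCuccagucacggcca
miR-132-3p: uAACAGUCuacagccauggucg
miR-132-5p: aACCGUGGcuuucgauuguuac
miR-222-3p: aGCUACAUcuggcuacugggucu
miR-221-3p: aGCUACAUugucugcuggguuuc
miR-431-5p: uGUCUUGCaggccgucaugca
miR-155-5p: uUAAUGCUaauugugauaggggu
miR-148a-3p: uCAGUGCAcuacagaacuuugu
miR-7b-5p: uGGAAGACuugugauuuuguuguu
miR-218-5p: uUGUGCUUgaucuaaccaugu
miR-138-1-3p: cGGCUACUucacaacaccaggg
miR-3059-5p: uUUCCUCUcugccccauagggu
miR-434-3p: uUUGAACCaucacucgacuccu
In this set miR-211-5p and miR-204-5p have the same seed, as do miR-221-3p and miR-222-3p, and miR-132-3p and miR-212-3p. The 5p arms of miR-212 and miR-132 have seeds unlike each other and unlike those of their 3p arms.

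Between 10 d and 6 wk, 3 miRNAs rose and none was called lower. They were miR-211-5p, miR-212-5p and miR-222-3p, and they came from different chromosomes. The 3 were 0.719% of the 417 tested, by edgeR's quasi-likelihood test with Benjamini-Hochberg adjustment at a threshold of 0.05. At an unadjusted p under 0.05, 44 miRNAs were higher at 6 wk (10.6%) and 23 were lower (5.52%). The lowest adjusted p among the miRNAs that were lower at 6 wk was 0.0728. Both 6 wk libraries lay above both 10 d libraries for 100 miRNAs (24%) and below them for 88 (21.1%), together 188 miRNAs (45.1%). Counts of called miRNAs moved with the processing. No filter on low counts gave 34 calls and DESeq2's Wald test gave 12, 4 of them lower at 6 wk, limma-voom gave 3 with 0 lower, while leaving out 10 d library 4 gave 1, miR-378b.

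Most miRNAs differed little between the times. The median log2 fold change, 6 wk over 10 d, was -0.01, with quartiles of -0.19 and 0.23, and 205 of the 417 values were above 0. Only 15 of the tested miRNAs differed by at least 1 on the log2 scale, 10 of them higher and 5 lower at 6 wk. The typical difference between the 2 libraries of a time was of the same order, with a median of 0.23 at 10 d and 0.19 at 6 wk on the log2 scale. The most abundant miRNA of the tissue, miR-127-3p from the imprinted Dlk1-Dio3 region, made up 16.5 to 17.8% of the tags of each library, and the 6 most abundant made up 49.2 to 50.6%.

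**Figure D1:**
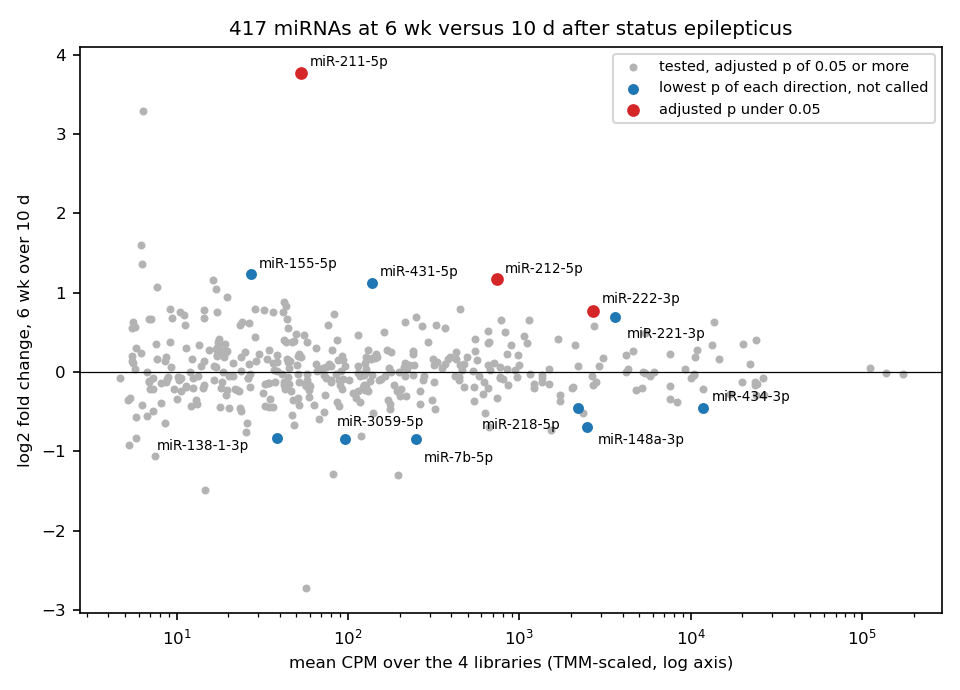
Log2 fold change of each of the 417 tested miRNAs, 6 wk over 10 d, against its mean level in CPM over the 4 libraries (log axis). Red points are the 3 miRNAs with an adjusted p under 0.05, all above 0, and blue points are the others among the 6 with the lowest p in each direction.

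miR-211-5p had the largest difference. It lies in an intron of Trpm1, on the same strand, at chromosome 7, 71350717 to 71350738 (mm9), and is best known from pigment cells, where it is made with its host transcript. The 10 d libraries held 7.17 and 7.25 CPM and the 6 wk libraries 64.7 and 133. All 6 wk values stood far above those at 10 d, but the 2 libraries of 6 wk differed from each other by more than those of 10 d. Behind these levels were 17 and 4 tags at 10 d and 97 and 247 tags at 6 wk. The exact 95% interval of the 4 tags ran from 2.00 to 18.8 CPM of that library's total, and the interval of the lower 6 wk library ran from 53.1 to 79.8. The log2 fold change was 3.78 with a standard error of 0.46, a 13.7-fold higher level, and edgeR's adjusted p was 0.0406. The call was lost with limma-voom (adjusted p = 0.0565) and without 10 d library 4 (adjusted p = 0.112), and over the alternatives tried the adjusted p ran from 1.10e-26 to 0.112. Without 6 wk library 6 the log2 fold change was 3.13 and without library 5 it was 4.16. The miRNA was too rare for a filter that asks for a mean of 100 tags.

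The near twin of miR-211-5p did not pass the test. miR-204-5p, which lies in an intron of Trpm3 at chromosome 19, 22825100 to 22825121 (mm9), and is abundant in the choroid plexus and the pigment epithelium of the eye, differs from miR-211-5p by A17U, counted from the 5′ end with the miR-204-5p base first. Its levels were 5918 and 12915 CPM at 10 d and 5441 and 9067 at 6 wk. The groups overlapped, and the log2 fold change was -0.37 with a standard error of 0.40 and an adjusted p of 0.745 by edgeR. The value depended on the 10 d libraries: without library 3 it was -0.82 with an adjusted p of 7.89e-05, and without library 4 it was 0.28 with an adjusted p of 0.748, while over all alternatives the adjusted p ran from 7.89e-05 to 0.996. Of the tags of both miRNAs together, miR-211-5p made up 0.121% and 0.0561% at 10 d and 1.18% and 1.45% at 6 wk, with exact intervals of 0.0153 to 0.194% over the 10 d libraries and 0.954 to 1.64% over those of 6 wk. No source used here says how tags of such near copies were assigned, so the count of miR-211-5p is uncertain by any misassigned share of the far more abundant miR-204-5p, which was not tested.

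The choroid plexus lies against the hippocampus, and miRNAs known from it varied between libraries of 1 time. Of 9 tested names on a list of choroid plexus and ependyma miRNAs, miR-211-5p was called, the other 8 were not, and 7 of the 9 had a log2 fold change under 0. Over all tested miRNAs 0.719% were called, and 212 of 417 had a log2 fold change under 0. The summed level of the list was 7228 and 16071 CPM at 10 d and 7097 and 11078 at 6 wk, and its median log2 fold change was -0.23 beside -0.01 over all tested miRNAs. In this sum 10 d library 4 was the highest, and 10 d library 3 and 6 wk library 5 were the lowest. Most of the sum was miR-204-5p alone, at 5918 and 12915 CPM at 10 d and 5441 and 9067 at 6 wk. Not every member followed the order of the sum. miR-429-3p, of the epithelial miR-200 family, stood at 37.1 and 25.4 CPM at 10 d and 18.0 and 21.1 at 6 wk, with a log2 fold change of -0.76 and an adjusted p of 0.209. The part of choroid plexus tissue in the result for miR-211-5p was not tested. In bulk tissue, more cells of a type and more RNA per cell cannot be told apart.

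miR-212-5p was the arm that rose in a cluster of 4. miR-212 and miR-132 are made from 1 transcript that neuronal activity induces through the transcription factor CREB, and they are known for effects on dendrite growth and synapses. The 4 arms lie at chromosome 11, 74986905 to 74987246 (mm9), in an intron of the long non-coding RNA 1700016P03Rik on the same strand. miR-212-5p, at 74986905 to 74986927, stood at 427 and 482 CPM at 10 d and at 1109 and 937 at 6 wk. Both 6 wk libraries lay above both of 10 d. The log2 fold change was 1.17 with a standard error of 0.15, a 2.26-fold higher level, and the adjusted p by edgeR was 0.0406. Leaving out a library ended this call for 10 d library 4 (adjusted p = 0.112), 6 wk library 5 (0.192) and 6 wk library 6 (0.208), while the log2 fold change stayed between 1.02 and 1.28. Over all alternatives the adjusted p ran from 7.88e-09 to 0.208.

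The other 3 arms of the cluster did not pass the edgeR test, though DESeq2's Wald test called both arms of miR-132 higher. miR-132-3p, the most abundant of them, stood at 2297 and 2068 CPM at 10 d and 3494 and 3021 at 6 wk, with a log2 fold change of 0.58 and an adjusted p of 0.151. miR-132-5p stood at 303 and 359 CPM at 10 d and 639 and 508 at 6 wk, with a log2 fold change of 0.80 and an adjusted p of 0.151. miR-212-3p stood at 579 and 562 CPM at 10 d and 809 and 666 at 6 wk, with a log2 fold change of 0.37 and an adjusted p of 0.287. In each of the 4 arms both 6 wk libraries lay above both of 10 d, as they did for 24% of all tested miRNAs. The 4 arms come from 1 transcript and are not independent observations.

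The 2 arms of miR-212 differed in size of change. The 5p arm made up 42.5% and 46.2% of the tags of the hairpin at 10 d, and 57.8% and 58.5% at 6 wk, so that the more abundant arm was 3p at 10 d and 5p at 6 wk. The exact 95% intervals reached from 40.5 to 50.3% over the 10 d libraries and from 56.0 to 60.2% over those of 6 wk. For miR-132 the 5p share was 11.7% and 14.8% at 10 d and 15.5% and 14.4% at 6 wk, and these shares overlapped. Among 112 hairpins with both arms tested, the difference between the log2 fold changes of the 5p and 3p arms was 0.80 for miR-212, the third highest, after 1.14 for miR-377 and 0.96 for miR-431. The signs of both arms were the same in 74 of the 112. This ranking was not tested, and the arms of a hairpin differ in depth. The 5p arms of miR-212 and miR-431 were picked for low p in these same libraries, which favours a high rank. miR-377-5p rested on 21 and 4 tags at 10 d and 23 and 24 at 6 wk.

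miR-222-3p rose by less than the other called miRNAs but had the smallest spread between libraries. miR-221 and miR-222 form a cluster on the X chromosome and are known for repressing the cell cycle inhibitor p27 and the receptor Kit, in vessel wall, blood and tumour cells. Their 4 arms lie at chromosome X, 18723433 to 18724086 (mm9), where the annotation used holds no gene. miR-222-3p stood at 1979 and 1999 CPM at 10 d and 3378 and 3413 at 6 wk. The libraries of each time were almost equal, and the groups were far apart. The log2 fold change was 0.77 with a standard error of 0.10, a 1.71-fold higher level, and edgeR's adjusted p was 0.0406. Leaving out 10 d library 4, 6 wk library 5 or 6 wk library 6 ended the call, with adjusted p-values of 0.112, 0.299 and 0.384, while the log2 fold change stayed between 0.75 and 0.78. Over all alternatives the adjusted p ran from 5.12e-05 to 0.384.

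The remaining arms of the X cluster gave values of similar size without passing the test. miR-221-3p, with the same seed as miR-222-3p, stood at 2627 and 2880 CPM at 10 d and 4573 and 4309 at 6 wk. Its log2 fold change was 0.69 with a standard error of 0.11, and its adjusted p was 0.0592, with a range of 0.000675 to 0.429 over the alternatives. The rarer arms miR-221-5p and miR-222-5p had log2 fold changes of 0.69 and 0.75 with adjusted p-values of 0.183 and 0.209. In all 4 arms both 6 wk libraries lay above both of 10 d, as they did for 24% of all tested miRNAs. The 4 arms come from 1 cluster, and miR-222-5p rested on 85 and 13 tags at 10 d and 83 and 95 at 6 wk. The 5p share of the miR-221 hairpin was 5.91% and 7.08% at 10 d and 5.90% and 7.0% at 6 wk, and these shares overlapped.

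**Figure D2:**
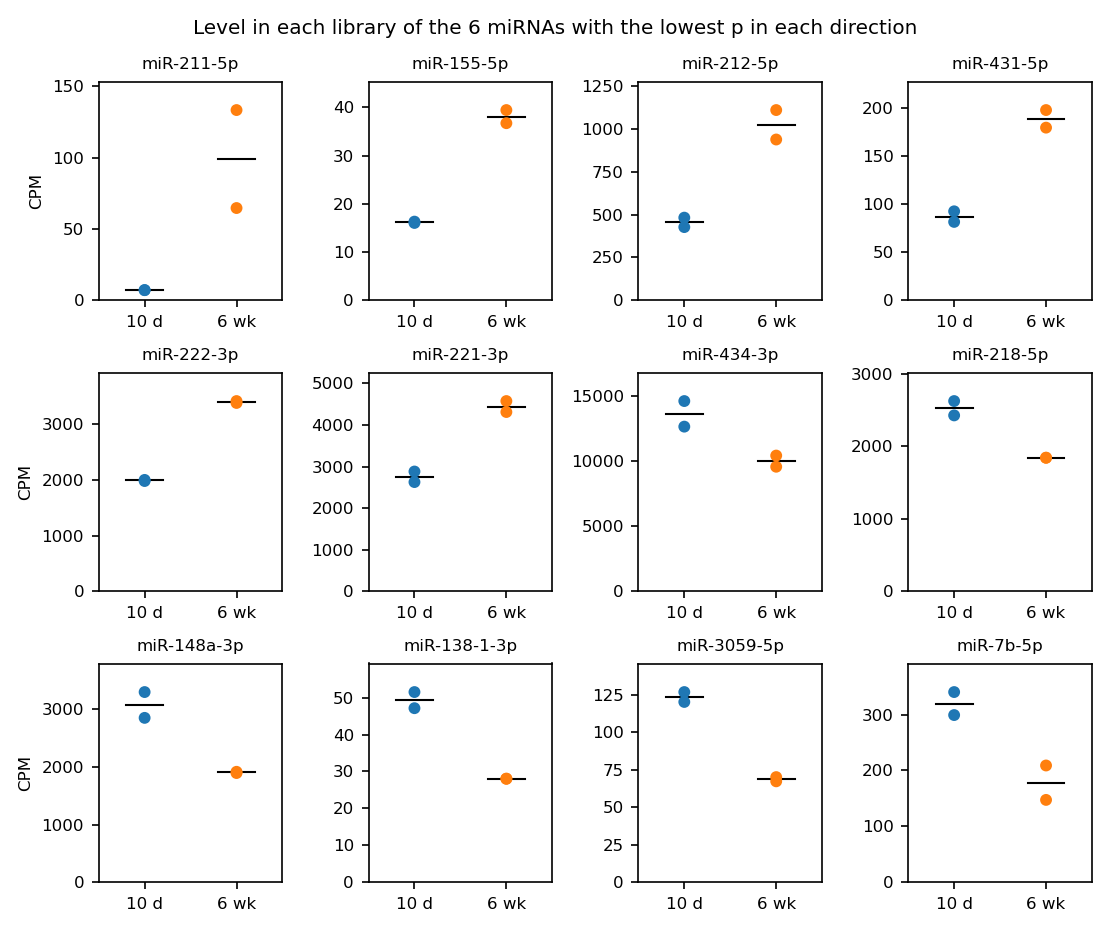
Level in CPM (linear axis from 0) of the 6 miRNAs with the lowest p in each direction, with 1 point for each library and a line at the mean of 2 libraries. In each of the 12 panels the 2 libraries of 6 wk lie on 1 side of the 2 libraries of 10 d. The 12 were picked for low p in these same libraries, which favours such a separation. Of all 417 tested miRNAs, 45.1% were separated in this way. Relative to its mean, the widest spread within a time in the panels is that of miR-211-5p at 6 wk, 64.7 and 133.

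Of the other miRNAs with the lowest p on the higher side, miR-431-5p and miR-155-5p missed the threshold. miR-431-5p stood at 81.5 and 92.4 CPM at 10 d and 197 and 179 at 6 wk, with a log2 fold change of 1.13, a standard error of 0.18 and an adjusted p of 0.0592. Its adjusted p ran from 0.000135 to 0.384 over the 14 alternatives and was under the threshold in 9 of them. It lies at chromosome 12, 110828669 to 110828689 (mm9), opposite an exon of Rtl1 in the imprinted Dlk1-Dio3 region, and its 3p arm had a log2 fold change of 0.16. The 5p share of this hairpin was 17.7% and 21.3% at 10 d and 30.4% and 33.4% at 6 wk. Within the 16 tested miRNAs around it that each lie within 10 kb of the next, log2 fold changes ran from -0.45 to 1.13 with a median of 0.02, and 8 were above 0. The neighbours of miR-431-5p went both ways.

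miR-155-5p, induced in macrophages and lymphocytes by inflammatory signals, lies in an exon of the Mir155 host RNA at chromosome 16, 84714388 to 84714410 (mm9). It stood at 16.0 and 16.3 CPM at 10 d and 36.7 and 39.4 at 6 wk. The log2 fold change was 1.24 with a standard error of 0.20, and the adjusted p was 0.0592, with a range of 0.00211 to 0.384 over 12 alternatives and a value under the threshold in 3 of them. These levels rest on 38 and 9 tags at 10 d and 55 and 73 tags at 6 wk.

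On the lower side no miRNA passed the edgeR test. miR-148a-3p came nearest, with 3292 and 2845 CPM at 10 d and 1891 and 1913 at 6 wk. Its log2 fold change was -0.69 with a standard error of 0.12 and an adjusted p of 0.0728, and the groups did not overlap. The adjusted p ran from 0.00104 to 0.453 over the alternatives, and it was under the threshold in 6 of them. miR-148a-3p lies at chromosome 6, 51219828 to 51219849 (mm9), outside annotated genes. Its seed partners miR-148b-3p and miR-152-3p had log2 fold changes of -0.04 and 0.01, and the difference between the members was not tested.

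The miR-7 family showed like values in both members. miR-7 is rich in neurons and neuroendocrine cells and is bound by the circular RNA Cdr1as. miR-7b-5p stood at 340 and 299 CPM at 10 d and 147 and 209 at 6 wk, with a log2 fold change of -0.85 and an adjusted p of 0.177. miR-7a-5p stood at 896 and 747 CPM at 10 d and 428 and 594 at 6 wk, with a log2 fold change of -0.69 and an adjusted p of 0.185. Neither passed the edgeR test, though DESeq2's Wald test called both lower, and both miRNAs have the seed GGAAGAC. No source used here says how tags were assigned between them, so they may not be independent observations. The rarer 3p arms miR-7a-1-3p, miR-7a-2-3p and miR-7b-3p had log2 fold changes of -0.42, -0.33 and 0.12.

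The other miRNAs with low p on the lower side were miR-218-5p, miR-138-1-3p, miR-3059-5p and miR-434-3p. miR-218-5p, a brain miRNA encoded in introns of the axon guidance genes Slit2 (chromosome 5, 48615205 to 48615225) and Slit3 (chromosome 11, 35430342 to 35430362, both mm9), stood at 2625 and 2427 CPM at 10 d and 1843 and 1844 at 6 wk. Its log2 fold change was -0.46 with an adjusted p of 0.168. miR-138-1-3p, from the hairpin whose 5p arm restrains dendritic spine size, stood at 51.5 and 47.1 CPM at 10 d and 28.0 and 28.1 at 6 wk, with a log2 fold change of -0.83 and an adjusted p of 0.151.
The abundant 5p arm, miR-138-5p, had a log2 fold change of -0.37 and an adjusted p of 0.276. miR-3059-5p, in an intron of Mgat4c, stood at 120 and 127 CPM at 10 d and 67.4 and 70.2 at 6 wk, with a log2 fold change of -0.84 and an adjusted p of 0.131. DESeq2's Wald test called miR-3059-5p lower. miR-434-3p, opposite Rtl1 in the Dlk1-Dio3 region, stood at 14637 and 12671 CPM at 10 d and 10446 and 9587 at 6 wk, with a log2 fold change of -0.45 and an adjusted p of 0.183. In all 4 of these miRNAs with low p the libraries of the 2 times did not overlap. These 4 were chosen by p from the same libraries, which favours such a separation. Of all tested miRNAs, 21.1% had both 6 wk libraries below both of 10 d.

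**Figure D3:**
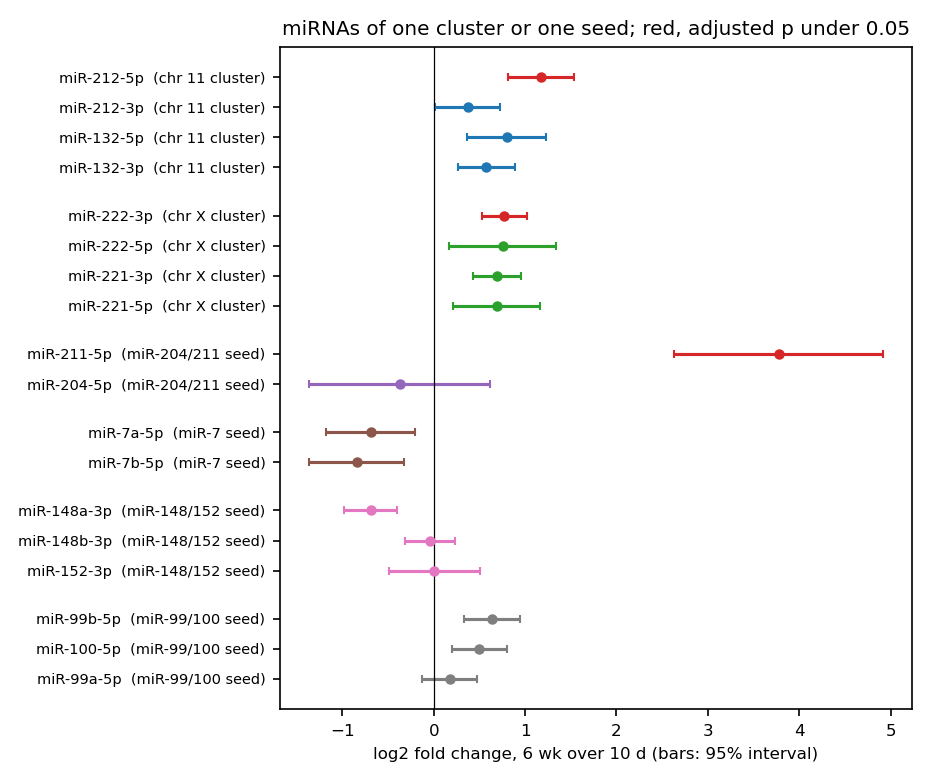
Log2 fold change, 6 wk over 10 d, with its 95% interval from the edgeR fit, for miRNAs that share a cluster or a seed. The 4 arms of the chromosome 11 cluster run from 0.37 to 1.17 and the 4 of the chromosome X cluster from 0.69 to 0.77, whereas miR-211-5p at 3.78 and miR-204-5p at -0.37 stand apart, and red marks an adjusted p under 0.05.

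Other seed families were mixed, and none of their members passed the edgeR test. miR-99b-5p, miR-100-5p and miR-99a-5p, which have the seed ACCCGUA, had log2 fold changes of 0.63, 0.50 and 0.18, with adjusted p-values of 0.124, 0.168 and 0.575. miR-99b-5p, the most abundant of them, stood at 11377 and 10171 CPM at 10 d and 18095 and 15359 at 6 wk, and DESeq2's Wald test called it. In the miR-181 family, with the seed ACAUUCA, the dominant miR-181a-5p had a log2 fold change of 0.05, while miR-181c-5p and miR-181d-5p had 0.35 and 0.46, with adjusted p-values of 0.186 and 0.168. These families were looked at after their values had been seen.

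miR-134-5p, miR-146a-5p, miR-21a-5p and miR-34a-5p were named whatever their values, and none passed the test. miR-134-5p, which restrains dendritic spines through Limk1, stood at 98.8 and 99.7 CPM at 10 d and 88.1 and 82.6 at 6 wk, with a log2 fold change of -0.22 and an adjusted p of 0.625. miR-146a-5p, which dampens signalling from Toll-like and interleukin receptors through Irak1 and Traf6, stood at 9009 and 10592 CPM at 10 d and 10457 and 13377 at 6 wk. Its groups overlapped, and its log2 fold change was 0.28 with an adjusted p of 0.446. miR-21a-5p, a miRNA of reactive glia and injured tissue, stood at 2538 and 3034 CPM at 10 d and 2113 and 1776 at 6 wk, with a log2 fold change of -0.52 and an adjusted p of 0.183, and its groups did not overlap.
Its rare 3p arm had a log2 fold change of 0.17. miR-34a-5p, a target of p53, had a log2 fold change of 0.20 with an adjusted p of 0.774, and its direction turned to -0.08 without 10 d library 3.

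Members of the neuronal list went both ways. miR-124-3p, the main miRNA of differentiated neurons, stood at 5063 and 5240 CPM at 10 d and 4367 and 4461 at 6 wk, with a log2 fold change of -0.22 and an adjusted p of 0.334. miR-9-5p and miR-9-3p, known from neural progenitors and neurons, had log2 fold changes of -0.13 and -0.27 with adjusted p-values of 0.637 and 0.345. Of 29 tested names on the list of neuronal miRNAs, miR-212-5p was called, 11 stood higher and 12 lower at 6 wk with no overlap between the groups, and the median log2 fold change was -0.12 beside -0.01 over all tested. The shares over all tested were 24% and 21.1%. The higher members included the arms of miR-132, miR-212 and miR-135b and the lower ones miR-218-5p, miR-138-5p and miR-124-3p.

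The inflammation and myeloid list stood higher than the other lists in its median. Of its 19 tested names, miR-222-3p was called, 12 had both 6 wk libraries above both of 10 d, 2 had them below, and the median log2 fold change was 0.37. Over all tested miRNAs 0.719% were called, 24% stood above and 21.1% below in this way, and the median was -0.01. The list holds all 4 arms of miR-221 and miR-222 and both arms of miR-132, which are not specific to immune cells, and its miR-22 and miR-132 members also stand in the activity list. miR-223-3p, the neutrophil miRNA, stood at 3.80 and 7.25 CPM at 10 d and 12.0 and 7.56 at 6 wk, on 4 to 18 tags per library, with a log2 fold change of 1.07 and an adjusted p of 0.326. miR-142-5p, a miRNA of all blood-derived cells, stood at 937 and 995 CPM at 10 d and 1107 and 1390 at 6 wk, with a log2 fold change of 0.37 and an adjusted p of 0.294. These 2 were added after their values were seen. In the list 14 log2 fold changes were above 0 and 5 under 0, where 205 of all 417 tested were above 0. The 5 were miR-21a-5p (-0.52), miR-27b-3p (-0.16), miR-23b-3p (-0.16), miR-150-5p (-0.06) and miR-146b-5p (-0.04). No test of the list was run, and its members share transcripts and were listed with earlier results of these data known.

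Most other lists gave no called member. Of the 26 tested names on the activity and synapse list, miR-212-5p was the only one called, beside 0.719% over all tested, and the median log2 fold change was 0.06. The lists for oligodendrocytes, astrocytes, endothelium and vessel wall, and blood cells had no call in any of them. Their medians were 0.17, -0.01, 0.27 and -0.01 over 6, 17, 8 and 7 tested names. The vessel wall list did not match miR-145, which was deposited as miR-145a. Both tested arms of miR-145a were left out, with log2 fold changes of -0.35 (5p) and -0.10 (3p). The median of 0.27 is thus that of an incomplete list. The oligodendrocyte list is incomplete too, since it holds no miR-338, which is not analysed here. miR-219-2-3p, on the oligodendrocyte list, stood at 612 and 660 CPM at 10 d and 697 and 652 at 6 wk, and its groups overlapped. The rare miR-219-5p, with 5 to 17 tags per library, had a log2 fold change of -0.21 and an edgeR adjusted p of 0.887. miR-451a, the miRNA of red blood cells, stood at 69.6 and 92.4 CPM at 10 d and 62.0 and 68.0 at 6 wk, with a log2 fold change of -0.28 and an adjusted p of 0.605. The let-7, miR-29, miR-30, miR-17, miR-34 and miR-181 families had no called member, and their medians ran from -0.17 to 0.02.
Of 11 tested miR-30 names, 6 had both 6 wk libraries below both of 10 d and none had them above, beside 21.1% below and 24% above over all tested, and miR-30a-5p had a log2 fold change of -0.29 with an adjusted p of 0.281. The list of miRNAs of other tissues that a dissection could hold, with 11 tested names, had no call and a median of 0.08. The 67 tested names on the Dlk1-Dio3 list, miR-127-3p and miR-134-5p among them, had no call and a median log2 fold change of -0.03. The list lacks some tested miRNAs of the region, miR-299a-5p, miR-496a-3p and miR-3072-3p among them.

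**Figure D4:**
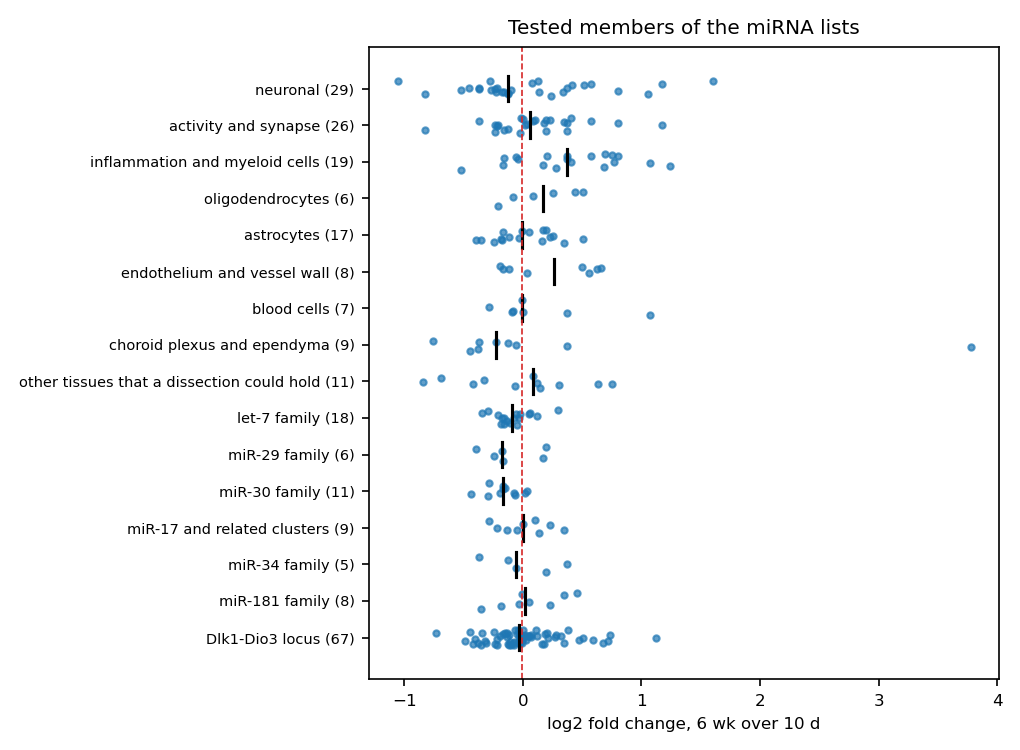
Log2 fold change, 6 wk over 10 d, of each tested member of 16 lists of miRNAs, with the number tested in brackets, a black bar at the median of each list and a dashed red line at the median of all 417 tested miRNAs. The medians run from -0.23 for choroid plexus and ependyma to 0.37 for inflammation and myeloid cells. The point far to the right is miR-211-5p at 3.78. Lists share members, the endothelium and vessel wall list lacks both arms of miR-145a, and the oligodendrocyte list lacks miR-338.

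Some large differences came with a high count in 1 library, a wide spread within a time or few tags. miR-378b had 434 tags in 10 d library 3 and 6, 21 and 34 in 10 d library 4 and 6 wk libraries 5 and 6, which gave a log2 fold change of -2.72 with an adjusted p of 0.276. miR-1298-5p and miR-448-3p differed as much within a time as between times. miR-1298-5p stood at 38.0 and 526 CPM at 10 d and 40.0 and 176 at 6 wk, and miR-448-3p stood at 30.0 and 210 at 10 d and 16.7 and 71.8 at 6 wk. miR-3970 had the second largest log2 fold change on the higher side, 3.30, from 1 and 2 tags at 10 d and 10 and 27 at 6 wk, with an adjusted p of 0.183. These 4 were chosen after their values were seen.

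mRNA folds of the 2 times are set beside the miRNAs as context. They come from the authors' deposited table, are signed linear folds averaged over pairwise comparisons with the same control libraries, and were not compared with each other; the first transcript listed stands for a gene. Trpm1, the host of miR-211-5p, was listed in the authors' deposited table at 4.08 at 10 d and -3.74 at 6 wk, with mean q-values of 0.400 and 0.694. Arhgap32, the spine regulator that miR-132 targets, was listed in the authors' deposited table at -1.76 at 10 d and 2.14 at 6 wk, with mean q-values of 4.58e-06 and 1.21e-07. Slit2 and Slit3, the hosts of miR-218, were listed in the authors' deposited table at -0.62 and -20.2 at 10 d and at -19.3 and -0.22 at 6 wk. Their mean q-values were 0.222 and 0.000483 at 10 d and 0.000356 and 0.213 at 6 wk.
The astrocyte gene Gfap was listed in the authors' deposited table at 8.47 at 10 d and 10.5 at 6 wk, with mean q-values of 0.194 and 9.82e-16. Its second transcript was listed in the authors' deposited table at 4.24 and 13.0, with mean q-values of 8.09e-07 and 9.82e-16. The phagocyte gene Cd68 was listed in the authors' deposited table at 488 at 10 d and 113 at 6 wk, with mean q-values of 7.13e-08 and 0.304. Ttr, which the choroid plexus makes in bulk, was listed in the authors' deposited table at 558 at 10 d and 57.7 at 6 wk, with mean q-values of 3.12e-10 and 0.0529. The miRNA processing genes Dicer1 and Drosha (listed as Rnasen) stood in the authors' deposited table at -0.75 and -0.41 at 10 d and at 2.44 and -3.45 at 6 wk. The mean q-values of these 2 genes were 0.000386 and 0.230 at 10 d and 0.00251 and 2.23e-13 at 6 wk. A mean fold under 1 in size hides pairs of unlike direction or pairs without a fold.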

How the data were processed

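Counts of small RNA tags per mature miRNA were deposited by the authors in a table of 29208 lines, without scaling, per the file headers. Each column was put in a group by the time that its name holds, and its number serves as a name alone. No source used here gives the mapping or annotation of small RNA; mRNA reads were mapped to mm9 with Bowtie, per the series' design text. The first line of each name was used, since no name had differing counts between lines, and 24 other per-sample columns were left out.

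The 4 libraries were fitted in R 4.3.3 with edgeR 4.0.16 (filterByExpr with a minimum count of 10 and a minimum total of 15, TMM scaling, glmQLFit, glmQLFTest) and Benjamini-Hochberg adjustment over 417 miRNAs, called at an adjusted p under 0.05. Standard errors are the log2 fold change divided by the root of the F statistic. The common biological coefficient of variation was 16.3%. Log2 CPM of the libraries of a time correlated across miRNAs, which are not independent replicates, with r of 0.983 at 10 d and 0.993 at 6 wk. Alternatives used DESeq2 1.42.0, limma 3.58.1 (voom), other scalings, filters and sets of libraries, and left-out libraries. The scripts were tested on simulated data. Intervals are exact binomial at 95%, and without molecular identifiers they cover counting error only.

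The miRNAs and lists were chosen with earlier results of these data known. Named were the called miRNAs, the 6 with the lowest p in each direction, the 6 most abundant, called members of lists and a set of well known miRNAs, 37 in all; miR-338-3p is not analysed here. Cluster, arm and seed partners, miR-223-3p, miR-142-5p and miR-429-3p were added after their values were seen. Older names (miR-21, miR-451) were matched to miR-21a and miR-451a. The listed miR-145, miR-299 and miR-496 were not matched to miR-145a, miR-299a and miR-496a, which therefore stand in no list. RefSeq held 357 of the 417 tested names, and positions are those of the deposited table (mm9), with genes from the annotation of that build; all 59 RefSeq sequences checked were found there. For mRNA the authors deposited a signed fold, a score averaged over pairwise comparisons, and mean q-values, per the file headers; no source used here gives how they were computed.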

Additional observations from a re-analysis of the deposited data

How the results depend on the processing

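The count of called miRNAs, 3 as reported with 3 higher and 0 lower at 6 wk, was the same with DESeq2's size factors, limma-voom, a mean of at least 100 tags and the line with the highest count, though limma-voom and the 100-tag filter replaced miR-211-5p by miR-431-5p. It was 7 with library totals only (6 higher, 1 lower), 12 with DESeq2's Wald test (8 higher, 4 lower), 34 with no filter (22 higher, 12 lower), 6 with the spread taken from 6 libraries (5 higher, 1 lower), 7 with the spread from all 8 libraries (6 higher, 1 lower) and 12 with robust empirical Bayes (9 higher, 3 lower). Leaving out each library in turn gave 1 to 28 calls, with 0 to 16 higher and 0 to 12 lower, where the lone library of a time was assumed to vary like the other time. The highest counts came without 10 d library 3, which kept all 3 calls. The cause of these shifts was not tested.

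Of the named miRNAs, miR-211-5p, miR-212-5p and miR-222-3p kept their direction under every alternative that tested them. Values near 0 turned sign. Over the left-out libraries the log2 fold change ran from -0.82 (without 10 d library 3) to 0.28 (without 10 d library 4) for miR-204-5p, from -0.076 (without 10 d library 3) to 0.47 for miR-34a-5p, from -0.20 to 0.058 (without 10 d library 3) for let-7c-5p and from -0.046 (without 6 wk library 6) to 0.11 for miR-181a-5p. It ran from -0.53 to 0.18 for miR-124-5p (above 0 without 10 d library 3 or 6 wk library 6), from -0.78 to 0.11 for miR-138-2-3p (above 0 without 10 d library 4 or 6 wk library 5), from -0.095 to 0.010 for miR-127-3p (without 10 d library 3) and from -0.063 to 0.014 for miR-26a-5p (without 10 d library 3). For miR-26a-5p it was 0.014 with no filter and 0.016 with the 100-tag filter.

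No paired analysis was possible because the small RNA columns carry library numbers that the 2 times do not share. Depth limits rare miRNAs in 10 d library 4, where 3 tags are worth 5.50 CPM.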
